A study of Mus musculus with 4 samples.

Results

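The 41 genes described here encode proteins that copy DNA or prepare the cell for S phase. They were taken by name from a fixed list of the replication machinery, its nucleotide supply, the chromatin factors that follow the fork and a few regulators of the G1/S transition, without use of their measured values. Earlier results of these data were known, however, when the list was chosen. All 41 were among the 46517 genes listed, and all 41 passed a minimum mean of 10 exon reads over the libraries, as did 11352 genes in all. The study asked how IL-17A, a cytokine made by T cells at the site of injury, affects the osteoblastogenesis of PαS cells. PαS cells are mesenchymal cells positive for PDGFRα and Sca-1 and negative for CD45, CD11b, Ter119, CD31 and CD34, here sorted from the injury tissue in and around the femur of wild-type C57BL/6J mice. They were seeded at 3000 cells per well and kept in osteogenic medium for 7 days with IL-17A and BMP-2 together, with IL-17A alone at 10 ng per ml, with BMP-2 alone at 500 ng per ml, or without cytokine. BMP-2 is a bone morphogenetic protein that drives osteoblast differentiation, and in the library with both cytokines each was present at the same dose as alone. Each condition has 1 library, so no difference below has a replicate check, and the labels do not say how many mice or wells went into a library.

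Replication starts where the origin recognition complex, with CDC6 and CDT1, loads the MCM2–7 helicase onto DNA in G1. On entry into S phase CDC45 and the GINS complex turn the loaded helicase into an active one, primase and DNA polymerase α begin each strand, and polymerases δ and ε, held by the PCNA clamp that replication factor C loads, extend it. Many of the genes are transcribed at the G1/S boundary by E2F factors once cyclin E and its kinase release them from the retinoblastoma protein, so their mRNA is widely used as a sign of proliferating cells.

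Exon reads per library ranged from 4190612 with IL-17A to 4719412 with BMP-2, and 53.1 to 53.9% of them were spliced. Transcripts of all 5 PαS cell markers examined were present in every library, with summed levels of 2898 to 3819 CPM, the reads scaled to a common library size. Of the surface markers the sort excluded, *Pecam1*, which encodes CD31, had no read in any library, *Ptprc* had at most 4, and *Itgam* had 29 reads with BMP-2 and at most 2 elsewhere. *Cd34* had 0 reads with both cytokines and 44 with IL-17A, against 12 with BMP-2 and 94 without cytokine. Of 14 macrophage markers, 7 were at 0 reads with both cytokines, 4 with IL-17A, 3 with BMP-2 and 1 without cytokine, and their summed level was 136 CPM with both cytokines and 171 CPM with IL-17A, against 468 CPM with BMP-2 and 196 CPM without cytokine, most of it from *Lyz2*. *Fcgr1* was at 0 in every library. The 7 endothelial markers summed to 13.9 CPM with both cytokines and 12.8 CPM with IL-17A, against 33.3 CPM with BMP-2 and 28.1 CPM without cytokine, with *Cdh5* and *Tie1* at 0 throughout. The difference lay in *Kdr*, which had 0 reads in both libraries with IL-17A, against 70 with BMP-2 and 117 without cytokine, whereas *Tek* had 23 reads with both cytokines and 51 with IL-17A, against 63 with BMP-2 and 0 without cytokine. Both marker sums and that of the PαS markers were thus lower in the libraries that received IL-17A, and their part in the results was not tested.

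By length-corrected level (RPKM, a read count corrected for the length of the exons and the gene reads of the library), the list was led by the ribonucleotide reductase genes that make deoxynucleotides. *Rrm2*, the S-phase subunit, stood at 543 RPKM with both cytokines and 252 RPKM with IL-17A, against 402 RPKM with BMP-2 and 347 RPKM without cytokine. It alone held 34.4%, 21.0%, 33.1% and 31.9% of the reads of the 41 genes in these libraries, in the same order. Its partner *Rrm1* followed at a mean of 60.0 RPKM over the 4 libraries, then *Rpa1*, a subunit of the single-strand binding protein, at 38.2 RPKM, and the clamp gene *Pcna* at 30.2 RPKM. At the other end were the catalytic polymerase genes *Pola1* at 0.905 RPKM and *Pole* at 1.56 RPKM, both long transcripts. The median of the 41 genes was 18.3 RPKM with both cytokines, 15.8 RPKM with IL-17A, 10.8 RPKM with BMP-2 and 12.8 RPKM without cytokine, while that of all 11352 genes lay between 6.72 and 6.94 RPKM. With both cytokines 25 of the 41 genes had their highest RPKM and 4 their lowest, and without cytokine 1 had its highest and 22 their lowest. These counts were not made over all genes, so they have no background. The plot of RPKM by library shows the values gene by gene. These are bulk libraries, in which fewer cycling cells and less of these mRNAs per cell cannot be told apart.

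**Figure D1:**
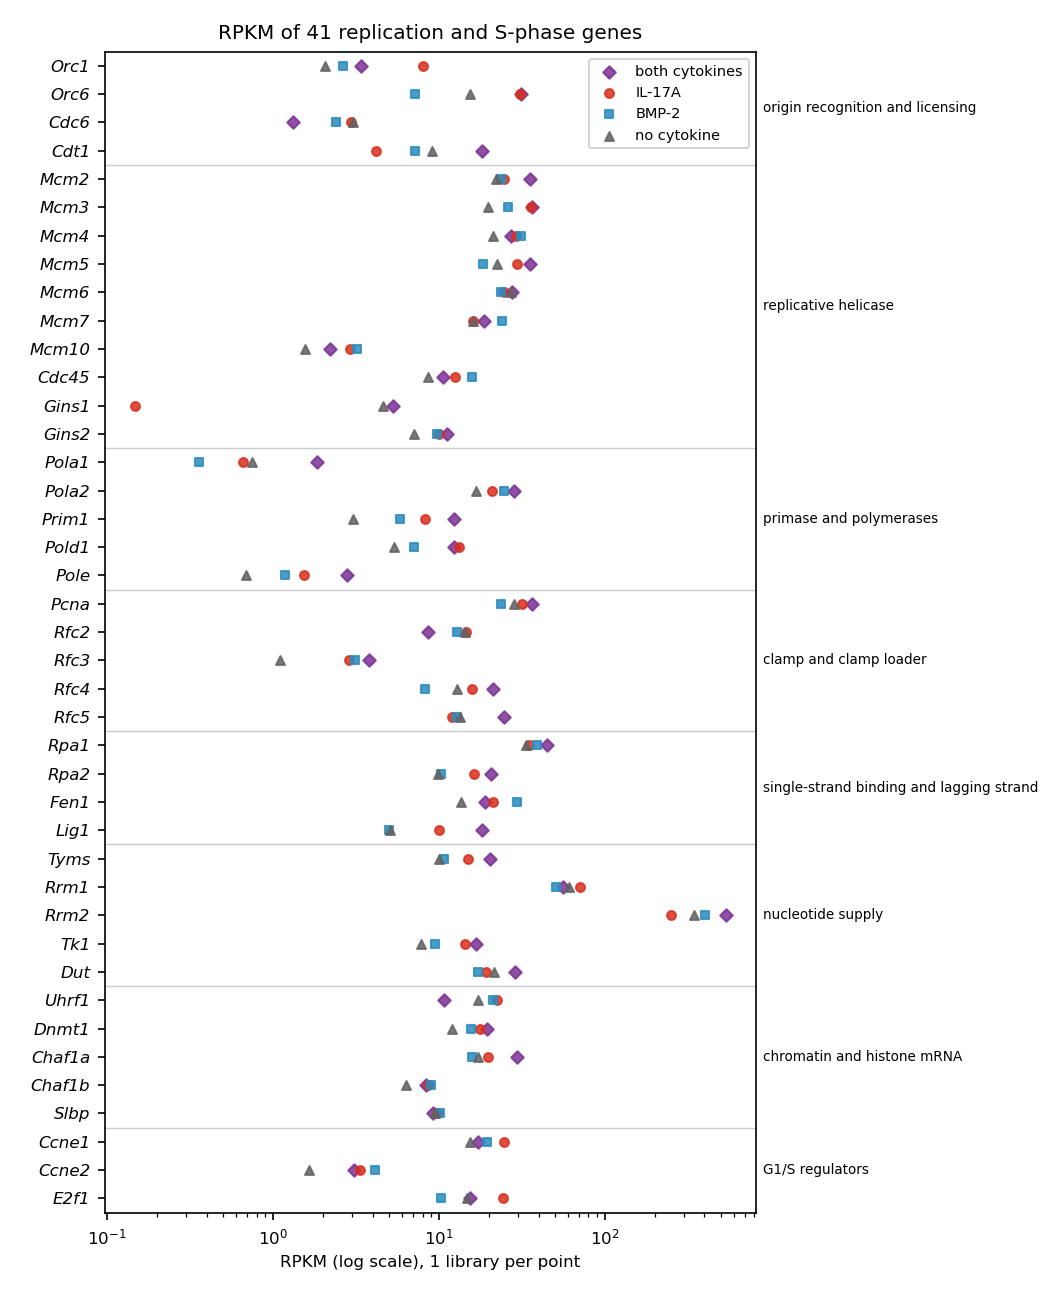
RPKM of the 41 genes (log axis) by functional group, 1 point per library for both cytokines, IL-17A, BMP-2 and no cytokine. *Rrm2* lies far to the right of the other genes, the 6 MCM genes *Mcm2* to *Mcm7* lie close together, and *Gins1* with BMP-2, at 0 RPKM, is not drawn.

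Because E2F factors drive many genes of this kind, the promoters were searched for E2F letters, which the choice of genes had not used. RefSeq (GRCm38.p6, the build that is also called mm10) gave a window of 250 bases before to 50 bases after the start for 35 of the 41 genes. The letters TTTGGCGC, TTTCCCGC, TTTCGCGC and TTTGCCGC, on either strand, stood in 13 of the 35 (37.1%), against 2.61% of 27025 genes with a window of this length. CCAAT, the letters of the NF-Y box, was held by 60.0% of the 35 and 41.1% of all, and TTTGAA, the letters of the cell cycle genes homology region of mitotic promoters, by 11.4% and 20.2%. E2F matches can overlap each other, as 2 do in *Mcm5* and 2 of the 3 in *Mcm6*. Letters in a window are a description and no evidence of binding, and a window without them may lie beside a site. The 160 bases before the start are shown for a gene with 2 matches, a gene with 3, a gene with 1 and *Orc6*, which had none and is one of the genes that differed most with IL-17A below. Each is written 5′ to 3′ on the strand of the gene, with the E2F letters in capitals.
Mcm5, chr8:75109349-75109508, plus strand: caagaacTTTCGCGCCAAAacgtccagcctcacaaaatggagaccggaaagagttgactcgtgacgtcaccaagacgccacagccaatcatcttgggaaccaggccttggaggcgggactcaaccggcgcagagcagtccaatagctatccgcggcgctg
Mcm6, chr1:128359706-128359865, minus strand: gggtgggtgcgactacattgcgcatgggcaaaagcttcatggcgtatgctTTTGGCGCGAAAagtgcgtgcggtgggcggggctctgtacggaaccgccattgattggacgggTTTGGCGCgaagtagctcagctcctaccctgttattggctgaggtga
Pola1, chrX:93632156-93632315, minus strand: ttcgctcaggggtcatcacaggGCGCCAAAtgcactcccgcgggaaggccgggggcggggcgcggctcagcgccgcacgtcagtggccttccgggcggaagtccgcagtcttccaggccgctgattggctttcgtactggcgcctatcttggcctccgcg
Orc6, chr8:85299472-85299631, plus strand: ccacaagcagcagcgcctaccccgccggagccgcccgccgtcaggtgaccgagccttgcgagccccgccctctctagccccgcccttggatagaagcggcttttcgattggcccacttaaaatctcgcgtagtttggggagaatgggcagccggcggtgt

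For 6 other genes picked among those with a match, 28 bases around a match near the start are shown. Numbered from the RefSeq start, with negative positions before it, they run from -37 to -10 in *Orc1*, 23 to 50 in *Cdt1*, 10 to 37 in *Mcm3*, 17 to 44 in *Lig1*, 23 to 50 in *Pold1* and -20 to 8 in *Rfc3*, which holds 2 matches.
Orc1, chr4:108579417-108579444, plus strand: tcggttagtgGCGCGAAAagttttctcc
Cdt1, chr8:122568037-122568064, plus strand: gaactaccttTTTGGCGCcatggcgcaa
Mcm3, chr1:20820276-20820303, minus strand: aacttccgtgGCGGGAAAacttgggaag
Lig1, chr7:13278842-13278869, plus strand: gccaaagtgcGCGCGAAAtctgtgtggc
Pold1, chr7:44548766-44548793, minus strand: cggcggcgtatcttgtgGCGGGAAAagc
Rfc3, chr5:151651201-151651228, minus strand: cgtcgcacgcTTTCGCGCtcGCGGGAAA

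The question of the main comparisons is what IL-17A does in the absence and in the presence of BMP-2. Exon reads were scaled by TMM (trimmed mean of M-values, a factor per library) and each ratio given an exact 95% interval, which covers counting error only, since reads amplified by PCR and not tagged per molecule can be copies of each other. A gene is called higher or lower when its ratio passed 1.5-fold and its interval excluded 1. With IL-17A alone, 15 of the 41 genes were higher than without cytokine, against a background of 19% of all 11352 genes, and 2 were lower, against 17.3%. The 15 were *Orc1*, *Orc6*, *Mcm3*, *Mcm10*, *Prim1*, *Pold1*, *Pole*, *Rfc3*, *Rpa2*, *Fen1*, *Lig1*, *Tk1*, *Ccne1*, *Ccne2* and *E2f1*, and the lower pair *Cdt1* and *Gins1*. At a fold of 2 instead, 5 of the 41 were higher, near the background of 10.9% of all genes. When both cytokines were compared with BMP-2, 16 genes were higher, against 20.9% of all genes, and 5 were lower, against 22%. The median log2 ratio of the 41 genes was 0.41 for IL-17A over no cytokine and 0.40 for both over BMP-2, beside medians of 0.00 and -0.00 over all genes.

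Those 2 comparisons share no library. The genes higher by at least 1.5-fold in both were 7 of the 41 (17.1%), against 5.8% of all genes, and none was lower in both, against 5.58%. They were *Orc6*, *Prim1*, *Pold1*, *Pole*, *Rpa2*, *Lig1* and *Tk1*, and 6 of them had a RefSeq window, of which 2 held E2F letters. Counting any ratio above 1, 22 genes lay above 1 in both comparisons and 3 below 1 in both, which is 53.7% and 7.32% of the 41, against 26.8% and 26.6% of all genes. Summed over the list without *Rrm2*, the ratio was 1.26 for IL-17A over no cytokine (95% interval 1.22 to 1.29) and 1.24 for both over BMP-2 (1.21 to 1.27). *Rrm2* itself was lower with IL-17A alone. With it included, the first sum was 1.08-fold higher (1.06 to 1.11) and the second 1.27-fold higher (1.24 to 1.29). The genes varied among themselves by more than counting error. The SD of their log2 ratios, leaving out *Gins1*, was 0.56 for IL-17A over no cytokine and 0.77 for both over BMP-2, where counting alone would give 0.18 and 0.16.

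**Figure D2:**
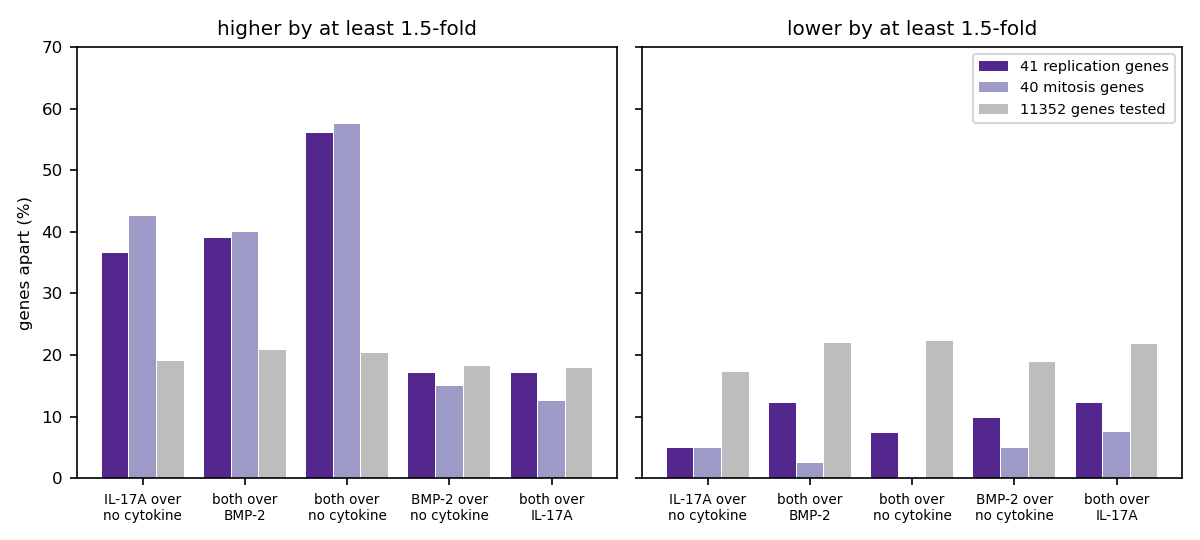
Percentage of genes higher (left) and lower (right) by at least 1.5-fold with an interval that excludes 1, in 5 comparisons, for the 41 replication genes, 40 mitosis genes and all 11352 genes. For the replication genes the left bars stand at 36.6% for IL-17A over no cytokine, 39.0% for both over BMP-2 and 56.1% for both over no cytokine, above the 19 to 20.9% of all genes, and at 17.1% for BMP-2 over no cytokine and for both over IL-17A, beside 18.2 and 17.9% of all genes.

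**Figure D3:**
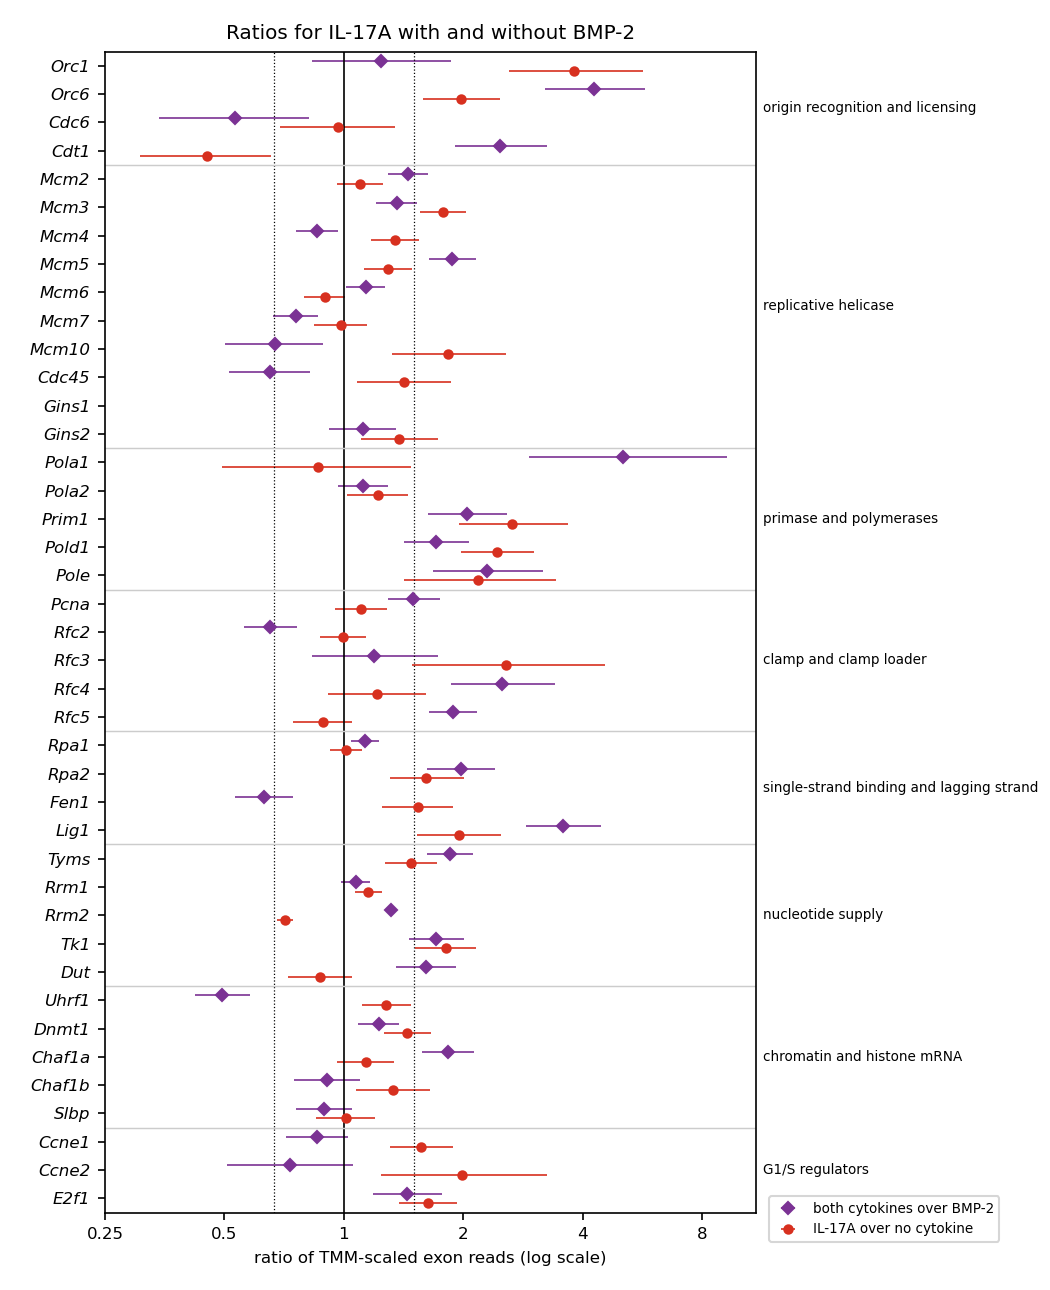
Ratio of TMM-scaled exon reads (log axis) for both cytokines over BMP-2 (diamonds) and IL-17A over no cytokine (circles), with exact 95% counting intervals as bars, for the listed genes other than *Gins1*, which had 1 and 0 reads in 2 libraries. The solid line marks a ratio of 1 and the dotted lines 1.5-fold, and *Prim1*, *Pold1*, *Pole*, *Rpa2*, *Lig1*, *Orc6* and *Tk1* have both points right of the upper dotted line.

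Among the licensing genes, *Orc6* (ENSMUSG00000031697, chromosome 8, 85299632 to 85308278 of mm10), a subunit of the origin recognition complex, had 264 exon reads with both cytokines and 230 with IL-17A, against 60 with BMP-2 and 127 without cytokine. Both libraries with IL-17A lay above both without it, with ratios of 4.28 over BMP-2 (3.22 to 5.76) and 1.97 over no cytokine (1.58 to 2.47). *Orc1*, the ATPase subunit, followed another pattern, with 60 reads with both cytokines and 126 with IL-17A, against 47 with BMP-2 and 36 without cytokine. It was highest with IL-17A alone, at 3.81-fold over no cytokine (2.61 to 5.69), and with both cytokines it was 1.58-fold over no cytokine (1.03 to 2.47) and 1.24-fold over BMP-2 (0.833 to 1.86). *Cdt1*, which brings the helicase to the origin, had 204 reads with both cytokines and 41 with IL-17A, against 80 with BMP-2 and 99 without cytokine. Its ratio was 2.48 for both over BMP-2 and 0.451 for IL-17A over no cytokine, on opposite sides of 1. *Cdt1* lies within the span of *Gm20388*, and 86.8% of its reads were unique to it. *Cdc6*, the loading factor, had 35 reads with both cytokines and 70 with IL-17A, against 64 with BMP-2 and 79 without cytokine, and was lowest where both cytokines were present.

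The 6 subunits of the MCM2–7 ring are needed in equal number, and their RPKM lay within a 2.22-fold range of each other in every library. They spanned 18.7 (*Mcm7*) to 36.3 RPKM (*Mcm3*) with both cytokines, 16.2 (*Mcm7*) to 35.9 (*Mcm3*) with IL-17A, 18.4 (*Mcm5*) to 31.3 (*Mcm4*) with BMP-2 and 16.2 (*Mcm7*) to 27.3 (*Mcm6*) without cytokine. Their summed reads gave a ratio of 1.19 for IL-17A over no cytokine (1.13 to 1.26) and of 1.18 for both over BMP-2 (1.12 to 1.24). Of the 6, *Mcm3* passed 1.5-fold with IL-17A alone, with 680 reads with both cytokines and 594 with IL-17A, against 486 with BMP-2 and 364 without cytokine. *Mcm5* passed it with both over BMP-2, with 618 reads with both cytokines and 456 with IL-17A, against 320 with BMP-2 and 385 without cytokine. Both genes were higher in the libraries with IL-17A than in those without. *Mcm2* had 720 reads with both cytokines, and 447, 482 and 443 reads with IL-17A, with BMP-2 and without cytokine. *Mcm6* ranged least, from 23.8 RPKM with BMP-2 to 27.7 RPKM with both cytokines. *Mcm4* and *Mcm7* were highest with BMP-2 alone, at 569 and 540 reads.

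Of the factors that activate the ring, *Cdc45* had 122 reads with both cytokines and 126 with IL-17A, against 182 with BMP-2 and 97 without cytokine. Its ratio was 0.652 for both over BMP-2 (0.514 to 0.824) and 1.42 for IL-17A over no cytokine (1.08 to 1.86). *Mcm10*, which helps to start the fork, had ratios of 0.669 and 1.83 in these comparisons. In spliced reads alone the ratio of both over BMP-2 was 1.34 for *Mcm10* (0.869 to 2.08), on the other side of 1, and 0.627 for *Cdc45* (0.489 to 0.801). *Gins2*, a subunit of the GINS complex, lay between 146 reads without cytokine and 234 with both. *Gins1* (ENSMUSG00000027454, chromosome 2, 150905400 to 150931280), its partner, had 41 reads with both cytokines and 1 with IL-17A, against 0 with BMP-2 and 35 without cytokine. With a floor of 3 reads for the library at 0, its ratio for both over BMP-2 was 13.3, with a lower interval bound of 10.3. Its ratio for IL-17A over no cytokine was 0.0311 (0.000767 to 0.185). Loss of a gene of this level from a library was common here, since 44.5% of the 1695 genes with a mean of 10 to under 30 reads had a library with at most 1 read and 13.1% had 2 such libraries.

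The primase and polymerase genes included 3 of the 7 genes higher with IL-17A in both states. *Prim1* (ENSMUSG00000025395, chromosome 10, 128015168 to 128030037), the catalytic subunit of primase, had 242 reads with both cytokines and 144 with IL-17A, against 115 with BMP-2 and 59 without cytokine. The libraries with IL-17A were both above those without it, with ratios of 2.05 over BMP-2 (1.63 to 2.58) and 2.66 over no cytokine (1.95 to 3.66). *Pold1* (ENSMUSG00000038644, chromosome 7, 44532746 to 44548849), the catalytic subunit of polymerase δ, had 306 reads with both cytokines and 291 with IL-17A, against 174 with BMP-2 and 130 without cytokine. Its ratios were 1.71 over BMP-2 (1.41 to 2.07) and 2.44 over no cytokine (1.98 to 3.02). *Pole* (ENSMUSG00000007080, chromosome 5, 110286306 to 110337474), which encodes the catalytic subunit of polymerase ε, had 137 reads with both cytokines and 66 with IL-17A, against 58 with BMP-2 and 33 without cytokine. Its ratios of 2.30 (1.68 to 3.18) and 2.18 (1.41 to 3.42) were close to each other. *Pola1*, the catalytic subunit of polymerase α, was the exception, with 83 reads with both cytokines, 26 with IL-17A, 16 with BMP-2 and 33 without cytokine. It was highest with both cytokines, at 5.04-fold over BMP-2 (2.93 to 9.23), and lowest with BMP-2, at 0.474 of no cytokine (0.244 to 0.887), while for IL-17A over no cytokine the ratio was 0.858 (0.493 to 1.48). Its partner *Pola2* had 413 reads with both cytokines and 269 with IL-17A, against 359 with BMP-2 and 241 without cytokine, and passed 1.5-fold in neither comparison.

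The clamp gene *Pcna* had 447 reads with both cytokines and 344 with IL-17A, against 290 with BMP-2 and 339 without cytokine, and 49.8% of its reads were unique to it. Its ratio over BMP-2 was just short of 1.5-fold (1.29 to 1.74), and its ratio over no cytokine was 1.11 (0.949 to 1.29). The subunits of the clamp loader, replication factor C, went separate ways. *Rfc2* had 278 reads with both cytokines, its lowest value, against 411 with IL-17A, 414 with BMP-2 and 450 without cytokine. *Rfc3* had 70 reads with both cytokines, 47 with IL-17A and 57 with BMP-2, against 20 without cytokine. *Rfc4* had 165 reads with both cytokines and 109 with IL-17A, against 64 with BMP-2 and 98 without cytokine, and was 2.51-fold higher with both than with BMP-2 (1.87 to 3.40). *Rfc5* had 591 reads with both cytokines, its highest value, against 254 with IL-17A, 305 with BMP-2 and 313 without cytokine. It shares 499 bases with *Wsb2* on the other strand, and its ratio of 1.88 for both over BMP-2 was 1.32 in reads unique to it.

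On the lagging strand, *Lig1* (ENSMUSG00000056394, chromosome 7, 13277283 to 13311433), the ligase that joins Okazaki fragments, had 397 reads with both cytokines and 193 with IL-17A, against 108 with BMP-2 and 108 without cytokine. It was equal in the libraries without IL-17A and higher in both with it, at 3.57-fold over BMP-2 (2.88 to 4.46) and 1.95-fold over no cytokine (1.53 to 2.49). *Rpa2* (ENSMUSG00000028884, chromosome 4, 132768332 to 132778752), a subunit of the single-strand binding protein, had 316 reads with both cytokines and 218 with IL-17A, against 156 with BMP-2 and 147 without cytokine, with ratios of 1.97 (1.62 to 2.40) and 1.62 (1.30 to 2.01). Reads in its introns also differed, at 337 with both cytokines and 66 with IL-17A, against 103 with BMP-2 and 91 without cytokine. The large subunit gene *Rpa1* varied less, from 33.7 RPKM without cytokine to 45.3 RPKM with both cytokines. *Fen1*, the flap endonuclease, had 235 reads with both cytokines and 231 with IL-17A, against 362 with BMP-2 and 164 without cytokine. Only 9.68% of its reads were unique to it, and in those its ratio for IL-17A over no cytokine was 0.851 (0.433 to 1.65) instead of 1.53, so it is uncertain.

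In the supply of nucleotides, *Tk1* (ENSMUSG00000025574, chromosome 11, 117815526 to 117826092), the S-phase thymidine kinase, had 444 reads with both cytokines and 338 with IL-17A, against 252 with BMP-2 and 204 without cytokine. Its ratios were 1.71 over BMP-2 (1.46 to 2.01) and 1.81 over no cytokine (1.51 to 2.16), and 1.86 and 1.76 in the 51.9% of its reads that were unique to it. *Tyms*, thymidylate synthase, had 634 reads with both cytokines and 413 with IL-17A, against 333 with BMP-2 and 304 without cytokine. It was above the libraries without IL-17A in both, although its ratio of 1.48 over no cytokine (1.27 to 1.72) was just short of 1.5. *Rrm2* had 7643 reads with both cytokines and 3130 with IL-17A, against 5646 with BMP-2 and 4794 without cytokine, which is 1.32-fold over BMP-2 (1.27 to 1.36) but 0.711 of no cytokine (0.680 to 0.744). Its order was thus not that of the list, and *Rrm1*, with 1038 to 1284 reads, was nearly level. *Dut*, whose product keeps uracil out of DNA, had 352 reads with both cytokines and 208 with IL-17A, against 212 with BMP-2 and 260 without cytokine.

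Of the genes for chromatin behind the fork, *Chaf1a*, the large subunit of chromatin assembly factor 1, had 500 reads with both cytokines and 296 with IL-17A, against 266 with BMP-2 and 284 without cytokine. *Chaf1b*, another subunit, had 159 to 229 reads and passed 1.5-fold in no comparison. *Dnmt1*, the maintenance DNA methyltransferase, had 630 reads with both cytokines and 502 with IL-17A, against 500 with BMP-2 and 378 without cytokine. *Uhrf1*, which guides DNMT1 to newly copied DNA, differed from it, with 234 reads with both cytokines and 430 with IL-17A, against 460 with BMP-2 and 366 without cytokine. It was the gene with the lowest ratio of both over BMP-2, at 0.494 (0.421 to 0.580). *Slbp*, which binds the stem-loop of histone mRNA, lay between 266 and 313 reads. The G1/S regulators were highest with one cytokine alone. *E2f1*, an activator of the S-phase genes, had 247 reads with both cytokines and 348 with IL-17A, against 166 with BMP-2 and 233 without cytokine, with ratios of 1.45 over BMP-2 (1.18 to 1.77) and 1.63 over no cytokine (1.37 to 1.93). In spliced reads alone the ratio of *E2f1* over no cytokine was 1.31 (1.02 to 1.68), below 1.5-fold. The cyclin E genes *Ccne1* and *Ccne2* had ratios of 1.57 and 1.99 for IL-17A over no cytokine. In spliced reads these were 1.62 (1.29 to 2.02) and 1.62 (0.942 to 2.84), so *Ccne2* was no longer called. Their ratios of both over BMP-2 in all exon reads were 0.855 (0.714 to 1.02) and 0.732 (0.506 to 1.05).

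In the comparisons that add BMP-2 the median ratio of the list lay nearer to 1 than in those that add IL-17A. With BMP-2 alone, 7 of the 41 genes were higher than without cytokine, against 18.2% of all genes, and 4 were lower, against 18.9%. When BMP-2 was added to IL-17A, 7 were higher than with IL-17A, against 17.9%, and 5 were lower, against 21.7%. The median log2 ratios of the 41 genes were 0.20 and 0.18, and -0.01 over all genes in both. In these comparisons, which share no library, *Pole* alone was higher in both, 1 of 41 genes against 4.25% of all, and none was lower in both, against 5.45%. Summed without *Rrm2*, reads were 1.09-fold higher with BMP-2 than without cytokine (1.06 to 1.12). They were 1.08-fold higher with both than with IL-17A (1.05 to 1.11). With *Rrm2* included, these sums were 1.11-fold (1.09 to 1.13) and 1.30-fold (1.27 to 1.33) higher. The sums with *Rrm2* were 1.08-fold higher for IL-17A over no cytokine and 1.27-fold for both over BMP-2. They thus did not show a smaller difference for BMP-2. The genes higher with BMP-2 alone were *Mcm10*, *Cdc45*, *Prim1*, *Pole*, *Rfc3*, *Fen1* and *Ccne2*, with ratios of 1.72 to 2.79, and those lower were *Orc6*, *Gins1*, *Pola1* and *Rfc4*. *Orc6* stood at 0.462 of no cytokine (0.334 to 0.633). The macrophage marker sum was highest in the BMP-2 library, and its part in these ratios was not tested.

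With both cytokines, 23 of the 41 genes were higher than without cytokine, against 20.4% of all genes, and 3 were lower, against 22.3%. The median log2 ratio was 0.61, beside -0.01 over all genes, and the summed reads without *Rrm2* were 1.35-fold higher (1.32 to 1.39). The highest ratios were those of *Pole* at 3.95 (2.68 to 5.96), *Prim1* at 3.90 (2.92 to 5.28) and *Lig1* at 3.50 (2.82 to 4.37), and the 3 lower genes were *Cdc6* at 0.421 (0.275 to 0.635), *Rfc2* at 0.587 (0.504 to 0.684) and *Uhrf1* at 0.608 (0.514 to 0.718). *Slbp* had 287 reads in both of these libraries.

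The only test that the design allows across genes treats the cytokines as additive factors over the 4 libraries, with 1 residual degree of freedom, which measures departure from additivity and not the spread between cultures. In edgeR's quasi-likelihood test of IL-17A, 1 of 11352 genes (0.00881%) had an adjusted p under 0.05, the chemokine gene *Cxcl5*, and 624 genes (5.5%) had an unadjusted p under 0.05. None of the 41 genes passed, and 8 of them (19.5%) had an unadjusted p under 0.05, each higher with IL-17A: *Mcm3*, *Rpa2*, *Tyms*, *Lig1*, *Pold1*, *Orc6*, *Prim1* and *Tk1*. The lowest adjusted p among the 41 was that of *Lig1*, at 0.875, with a log2 fold change of 1.40 and a higher value in both comparisons. DESeq2 called 49 genes for IL-17A, none of the 41 among them. It gave 2 of the 41 (4.88%) an unadjusted p under 0.05, against 605 of all genes (5.33%). The excess of such genes in the edgeR test was thus not seen with DESeq2. In the edgeR fit the log2 fold change was above 0 for 33 of the 41, a share not counted over all genes. Its median was 0.34 over the 41, beside -0.00 over all genes. For BMP-2, edgeR called no gene of the 11352 (0%), with 418 (3.68%) at an unadjusted p under 0.05, 1 of them, *Rrm2*, among the 41. DESeq2 called 9 genes for BMP-2 and none of the 41.

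The files also count, for each gene, the exon reads that span a splice junction. Among 7108 genes with at least 50 reads in each library the share of such reads had a median range of 7.64 percentage points over the libraries. Of the listed genes that passed this minimum of 50 reads, *Mcm10*, *Uhrf1* and *Rrm2* had the widest ranges, at 30.4, 25.0 and 20.4 points. *Rrm2* had 38.8% spliced reads with both cytokines, against 59.2% with IL-17A, 58.8% with BMP-2 and 55.5% without cytokine. *Uhrf1* had 35.9% with both cytokines, against 60.9%, 57.4% and 56.3% in the same order. *Mcm10* had 31.2% with BMP-2, against 61.6% with both cytokines, 55.4% with IL-17A and 58.3% without cytokine. A smaller range than that of *Rrm2*, *Uhrf1* and *Mcm10* was found in 93.2%, 97.1% and 98.9% of the 7108 genes, in that order. They were picked as the widest, so these shares do not set the list apart from other genes. In spliced reads alone, *Rrm2* with both cytokines was 1.07-fold over no cytokine (1.02 to 1.13), where all exon reads gave 1.52, and over BMP-2 it turned to 0.879 (0.836 to 0.924), where they gave 1.32. In the comparison with no cytokine *Uhrf1* was 0.392 (0.301 to 0.508), where they gave 0.608. The *Mcm10* ratio of BMP-2 over no cytokine was 1.09 (0.672 to 1.77) in spliced reads and 2.04 in all.

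**Figure D4:**
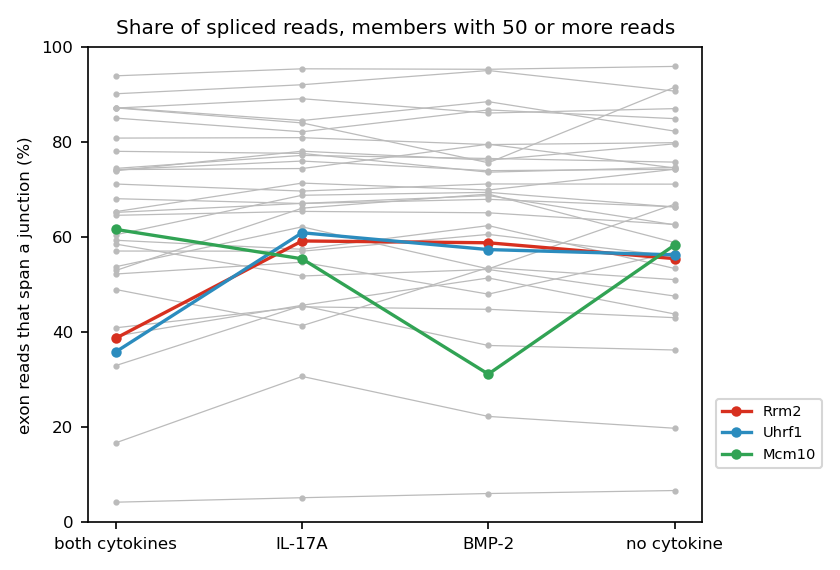
Percentage of exon reads that span a splice junction in the libraries with both cytokines, with IL-17A, with BMP-2 and without cytokine, 1 line for each listed gene with at least 50 reads in every library. *Rrm2* and *Uhrf1* stand at 38.8% and 35.9% with both cytokines and *Mcm10* at 31.2% with BMP-2, while most grey lines are nearly flat.

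Other replication and cell cycle genes were taken from lists of their own. Of 50 other replication genes 49 passed the read minimum, and 18 were higher and 1 lower for IL-17A over no cytokine, against 19 and 17.3% of all genes, and 19 higher and 8 lower for both over BMP-2, against 20.9 and 22%, with median log2 ratios of 0.25 and 0.20. The most abundant were *Ssrp1* and *Rbbp4*, which encode histone-binding proteins, *Topbp1*, a scaffold of helicase activation, and *Pole4*, a polymerase ε subunit. *Topbp1* was 1.12-fold over BMP-2 with both cytokines and 1.56-fold over no cytokine with IL-17A, and the ratios of *Ssrp1* were 1.12 and 1.10. *Dna2*, a nuclease and helicase, had 39 reads with IL-17A and 0 without cytokine, 14.2-fold higher with a floor of 3 reads. It had 17 with both cytokines but 34 with BMP-2, a ratio of 0.486 (0.255 to 0.894). *Chtf18*, part of an alternative clamp loader, likewise had 297 reads with IL-17A and 36 without cytokine, but 135 with both cytokines and 207 with BMP-2. *Ticrr*, which encodes the helicase activation factor treslin, had 0 reads with both cytokines and 90 with IL-17A, against 26 with BMP-2 and 8 without cytokine. These 3 genes were thus higher with IL-17A in the absence of BMP-2 and lower with it in its presence. *Supt16*, a histone chaperone gene, had 8 reads with both cytokines and 90 with IL-17A, against 58 with BMP-2 and 57 without cytokine. *Gins3*, another GINS subunit gene, had 58 and 45 reads in the libraries with IL-17A, against 33 with BMP-2 and 11 without cytokine. *Clspn*, the checkpoint mediator claspin, had 67 and 127 reads with IL-17A present, against 0 with BMP-2 and 47 without cytokine, and *Mcm8*, a helicase gene of DNA repair, had 138 and 79, against 34 and 31. The last 3 were higher in both libraries with IL-17A.

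The mitosis genes had medians further from 0. Of 40 such genes, 17 were higher and 2 lower for IL-17A over no cytokine, against 19 and 17.3% of all genes, and 16 higher and 1 lower for both over BMP-2, against 20.9 and 22%, with median log2 ratios of 0.54 and 0.46. With both cytokines over none, 23 were higher, against 20.4%, and 0 lower, against 22.3%. *Nuf2*, which encodes a kinetochore protein, had 251 reads with both cytokines and 204 with IL-17A, against 68 with BMP-2 and 79 without cytokine. *Bub1b*, a spindle checkpoint kinase gene, had 320 and 369 reads in the libraries with IL-17A, against 193 with BMP-2 and 148 without cytokine. Among the most abundant, *Kif20a* was 1.59-fold over BMP-2 with both cytokines and 1.75-fold over no cytokine with IL-17A, and *Cdc20* was 1.02-fold and 1.66-fold. *Ncapg*, a condensin gene, had 142 and 94 reads with IL-17A present, against 19 with BMP-2 and 73 without cytokine. *Cenpe*, a kinetochore motor gene, had 227 reads with both cytokines and 49 with IL-17A, against 222 with BMP-2 and 147 without cytokine, and was lower with IL-17A alone. The regulators of the G1/S step upstream of the 41 genes had medians nearer to 0. Of 26 measured among 28, 6 were higher and 6 lower for IL-17A over no cytokine (23.1% each, against 19 and 17.3% of all genes), and 8 higher and 4 lower for both over BMP-2 (against 20.9 and 22%), with median log2 ratios of -0.03 and 0.19. *Cdkn1c*, the gene of the kinase inhibitor p57, had 42 reads with both cytokines and 100 with IL-17A, against 255 with BMP-2 and 399 without cytokine, and was lower in both libraries with IL-17A. *E2f6*, which encodes a repressor of the E2F family, had 436 and 657 reads in the libraries with IL-17A, against 1145 with BMP-2 and 1180 without cytokine. *Cdk6*, a kinase gene of the G1 phase, had 68 reads with both cytokines and 96 with IL-17A, against 56 with BMP-2 and 0 without cytokine. *Rb1*, the retinoblastoma gene, had 54 reads with both cytokines and 13 with IL-17A, against 17 with BMP-2 and 41 without cytokine, with ratios of 3.09 over BMP-2 and 0.345 over no cytokine on opposite sides of 1. *Cdk4* was 1.33-fold over BMP-2 with both cytokines and 0.953 of no cytokine with IL-17A. *Cdkn1a*, the gene of the inhibitor p21, was 1.11-fold and 0.799 in these comparisons.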

How the data were processed

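The authors extracted total RNA from cultured PαS cells, amplified full-length cDNA with a low-input kit that does not record strand, read the libraries on an Ion Proton and used CLC Genomics Workbench. The version and mapping settings were not given in the sources used here. The build mm10 is named in the submitters' processing notes. The counts deposited by the authors are total and unique exon reads, intron reads and spliced reads per gene, and the RPKM deposited by the authors equals exon reads over exon length and gene reads when recomputed. Exon reads per library numbered 4190612 to 4719412.

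The 41 genes were matched by gene name. A minimum mean of 10 exon reads was set, and 5 comparisons were made, in which total exon reads scaled by TMM (edgeR 4.0.16, R 4.3.3) gave ratios, with exact (Clopper-Pearson) 95% intervals from Python 3.11.15, numpy 2.4.6, pandas 2.3.3 and scipy 1.17.1. Figures were drawn in matplotlib 3.10.9. Log2 ratios have a pseudocount of 0.5 on CPM, and a library at 0 was given a floor of 3 reads in single ratios. edgeR's quasi-likelihood test and DESeq2 1.42.0, both with Benjamini-Hochberg adjustment at 0.05, fitted IL-17A and BMP-2 as additive terms over all 4 libraries. The edgeR test and the intervals were also run on simulated data. The counts simulated for edgeR had additive effects only, so they cannot show how the test does where effects are not additive. Intervals and floors cover counting error only. Alternatives were DESeq2 size factors, library totals, unique reads, spliced reads, other folds, read minimums and pseudocounts, and a model with no term for the other cytokine.

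The genes, lists and rules were chosen with earlier results of these data known. Every one of the 41 genes is named, and of each other list up to 4 genes with the highest mean reads and up to 4 with the largest log2 ratio. Promoter windows are those of RefSeq (GRCm38.p6), gene positions those of the deposited files, where 36 of the 41 genes have the start and end of GENCODE M21. Of the 41 genes, 31 had over 90% of exon reads unique to them, and 13 had a gene with reads over their span.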

Additional observations from a re-analysis of the deposited data

Results flagged for a closer look

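For some of the 41 genes, the ratio for one cytokine lay on opposite sides of 1 in the presence and in the absence of the other, each beyond its counting interval. With 1 library per condition the difference between the states was not tested. Opposite sides beyond counting error were found in 8 of the 41 genes for IL-17A (19.5%), against 17.1% of all genes. For BMP-2 they were found in 7 (17.1%), against 18.3%. Both shares lay near those of all genes, so the pattern does not set the list apart. Below, each difference is the log2 ratio with the other cytokine minus that without it.

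For IL-17A, the ratios with and without BMP-2 were 2.48 and 0.451 for *Cdt1* (difference 2.46) and 1.32 and 0.711 for *Rrm2* (0.89). Those of *Gins1* were 13.3 and 0.0311 (8.74), with a floor of 3 reads for the library at 0. These genes were higher only where BMP-2 was present. The other way round, the ratios were 0.854 and 1.35 for *Mcm4* (-0.66), 0.669 and 1.83 for *Mcm10* (-1.46), 0.652 and 1.42 for *Cdc45* (-1.12), 0.631 and 1.53 for *Fen1* (-1.28) and 0.494 and 1.28 for *Uhrf1* (-1.37). Most of the reads of *Fen1* were not unique to it. Of the listed genes with at least 50 reads in each library, *Rrm2*, *Uhrf1* and *Mcm10* are also those whose share of spliced reads ranged most. In spliced reads 4 of the 8 genes kept opposite sides beyond counting error, namely *Cdt1*, *Cdc45*, *Gins1* and *Uhrf1*. The ratios with and without BMP-2 were then 0.879 and 0.754 for *Rrm2* and 1.34 and 1.73 for *Mcm10*, each pair on 1 side, and those of *Mcm4* and *Fen1* did not both exclude 1. In unique reads 7 of the 8 kept the pattern, without *Fen1*.

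For BMP-2, the ratios with and without IL-17A were 1.18 and 0.813 for *Mcm5* (0.54), 2.79 and 0.474 for *Pola1* (2.55), 1.32 and 0.639 for *Rfc4* (1.05), 1.48 and 0.798 for *Dut* (0.89) and 35.8 and 0.0839 for *Gins1* (8.74, with the same floor). They were 0.475 and 1.23 for *Uhrf1* (-1.37) and 0.689 and 1.26 for *Ccne1* (-0.88). In spliced reads 4 of the 7 kept opposite sides beyond counting error, without *Mcm5*, *Pola1* and *Dut*.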

How the results depend on the processing

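Of 205 ratios (41 genes in 5 comparisons), 205 kept their call (higher, lower or neither) with DESeq2 size factors, 199 with library totals, 198 with unique reads and 184 with spliced reads, where 17 fell below the call and 4 passed it. Ratios that moved to the other side of 1 numbered 1, 4, 5 and 13 in the same order, and for 1 of them, *Rrm2* for both over BMP-2 in spliced reads (0.879), both intervals excluded 1. *Fen1*, IL-17A over no cytokine, turned to 0.851 in unique reads. The 7 genes higher with IL-17A in both states were the same genes with DESeq2 size factors, unique reads and spliced reads, and library totals added *Tyms*. The called counts depended mostly on the fold. At 2-fold, the genes higher for IL-17A and for BMP-2 over no cytokine were near their background shares. At a fold of 2 the genes higher were 5 for IL-17A over no cytokine (background 10.9% of all genes), 8 for both over BMP-2 (12.9%), 8 for both over no cytokine (12%) and 4 for BMP-2 over no cytokine (10.6%), and the genes lower were 1 for both over BMP-2 (14.1%), 1 for both over no cytokine (14.2%) and 3 for both over IL-17A (13.6%). With no fold, those higher were 25 for IL-17A (29.8%) and 20 for BMP-2 (29.6%) over no cytokine and 17 for both over IL-17A (29.8%), and those lower were 10 for BMP-2 over no cytokine (31.1%) and 8 for both over BMP-2 (33.2%). With a mean of at least 50 reads, 1 gene was lower with IL-17A and 2 with BMP-2 than without cytokine, since *Gins1* and others of low reads were left out. With library totals, 3 were lower with both than with BMP-2. The median log2 ratio of BMP-2 over no cytokine was 0.0941 in unique reads, against 0.20. Genes passing the additive test numbered 49 for IL-17A and 9 for BMP-2 in DESeq2, and 0 for IL-17A in unique reads. None of the 41 genes passed under any setting run.

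No paired analysis was possible because each condition has 1 library, and leaving out a library leaves the additive model no residual degree of freedom. Depth limits the genes of few reads most, *Gins1*, *Pola1*, *Rfc3*, *Pole* and *Ccne2* among them.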
